A study of Mus musculus with 28 samples.

Results

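The 9 genes described here are markers of astrocytes, read in the histone mark profiles of sorted striatal neurons, where they served as genes of another lineage. They were chosen by gene symbol, and all 9 of 9 were found among the 21951 protein-coding genes of the annotation: Slc1a2, Slc1a3, Gja1, Aqp4, Aldh1l1, Aldoc, Gfap, S100b and Sox9. The nuclei came from the striatum of adult C57BL/6J mice of both sexes, in 2 lines that shared 1 knock-in allele, R26-CAG-LSL-Sun1-sfGFP, and differed in the Cre transgene. The line Sun1-sfGFP;A2a-cre tagged medium spiny neurons (MSNs) that express the adenosine A2a receptor, and the line Sun1-sfGFP;Drd1-cre tagged those that express the dopamine D1 receptor. The labels name no treatment, and both lines carried the same tagged nuclear membrane protein, switched on by Cre. Nuclei were captured on beads through the tag (INTACT) and profiled by CUT&RUN, in which an antibody directs a nuclease to cut chromatin around a histone mark. Cre driven by a receptor gene marks every cell that has used that gene, and bead capture enriches tagged nuclei without sorting each one.

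Of the 28 samples of the series, 8 stand behind the 4 deposited lists read here: H3K4me3 (Abcam antibody) and H3K27me3 (Active Motif antibody), each in A2a and in D1 MSNs with 2 replicates pooled by the authors into 1 list. The D1 H3K27me3 samples were taken as D1 from their titles and cell type labels, although their source field names A2a cells. Because each list is pooled, no replicate error exists for any value below, no test between A2a and D1 MSNs could be made, and differences between the 2 lists of a mark are values side by side. The lists also differed in yield: H3K4me3 gave 22551 peaks in A2a MSNs and 20080 in D1 MSNs, and H3K27me3 gave 60191 and 45760 islands with a mean of 73.4 and 42.8 reads per kb of island. The part of this difference in any A2a and D1 contrast below was not tested.

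Astrocytes are the glia that take up glutamate and potassium around synapses, couple to one another through gap junctions and line blood vessels with water-channel-rich endfeet. H3K4me3 is placed around the start sites of genes that are transcribed or ready for transcription, and it gathers at CpG-rich promoters. H3K27me3 is placed by Polycomb repressive complex 2, often over broad domains, and marks silent developmental and lineage genes, and a promoter that carries both marks is called bivalent. Below, the word means only that a peak and an island were both called at a promoter. The marks were profiled separately in pools of nuclei, so whether they share a nucleosome or a nucleus is not known.

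Genes of the labelled cell types were read first. At 8 genes of striatal projection neurons, 7 had a promoter H3K4me3 peak in each list, and 1 and 0 had a promoter H3K27me3 island in A2a and D1 MSNs. The A2a neuron genes Adora2a, Drd2 and Penk and the D1 neuron genes Drd1, Pdyn and Tac1 had a promoter peak in both lists. Promoter islands were called at 2 of the 3 A2a genes in A2a MSNs and at all 3 in D1 MSNs, and at all 3 D1 genes in both lists, so an island call alone did not separate the types. The islands differed in reads, with no replicate check. Islands over A2a genes held 160 (Drd2) and 200 (Penk) reads in A2a MSNs against 559 to 4153 in D1 MSNs, and those over D1 genes held 50 to 121 in D1 MSNs against 1958 to 9144 in A2a MSNs.

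At the promoters of the astrocyte markers, H3K4me3 was about as frequent as over all protein-coding genes, whereas H3K27me3 and the combination of both marks were more frequent. Over all annotated genes, noncoding ones included, H3K4me3 was less frequent, at 30.1% in A2a and 28.6% in D1 MSNs. A promoter was the window from 2 kb upstream to 1 kb downstream of the annotated 5′ end of the gene, and a call was an overlap of at least 1 bp. An H3K4me3 peak lay in the window of 6 of 9 markers in A2a MSNs, where 58.2% of protein-coding genes had one, and of 5 of 9 in D1 MSNs, where the share was 55.8%. An H3K27me3 island lay there in 6 of 9 markers in A2a MSNs against 21.6% of protein-coding genes, and in 3 of 9 in D1 MSNs against 15.3%. Both marks were present at 5 markers in A2a MSNs (9.53% of protein-coding genes) and at 3 in D1 MSNs (5.56%), and neither mark was present at 2 (29.7%) and 4 (34.5%). The H3K27me3 share of the markers thus stood above the background in both lists, with only 9 genes behind it.

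The markers fell into 5 patterns over the 4 lists. Slc1a3, Gja1 and Sox9 held both marks in both MSN types, a pattern of 5.21% of protein-coding genes. Slc1a2 and Aldoc held H3K4me3 in both types and a promoter island in A2a MSNs alone, as did 2.56% of protein-coding genes. Aldh1l1 held an island in A2a MSNs alone at its 5′ end (4.49%), S100b held an H3K4me3 peak in A2a MSNs alone (0.802%), and Aqp4 and Gfap held no call at the 5′ end (28.9%). Every marker that differed between the MSN types had the extra call in the A2a list. Over all protein-coding genes, a promoter island in A2a and not in D1 MSNs was also more common (7.38%, 1620 genes) than the reverse (220 genes), and for H3K4me3 peaks the shares were 2.59% and 0.164%.

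**Figure D1:**
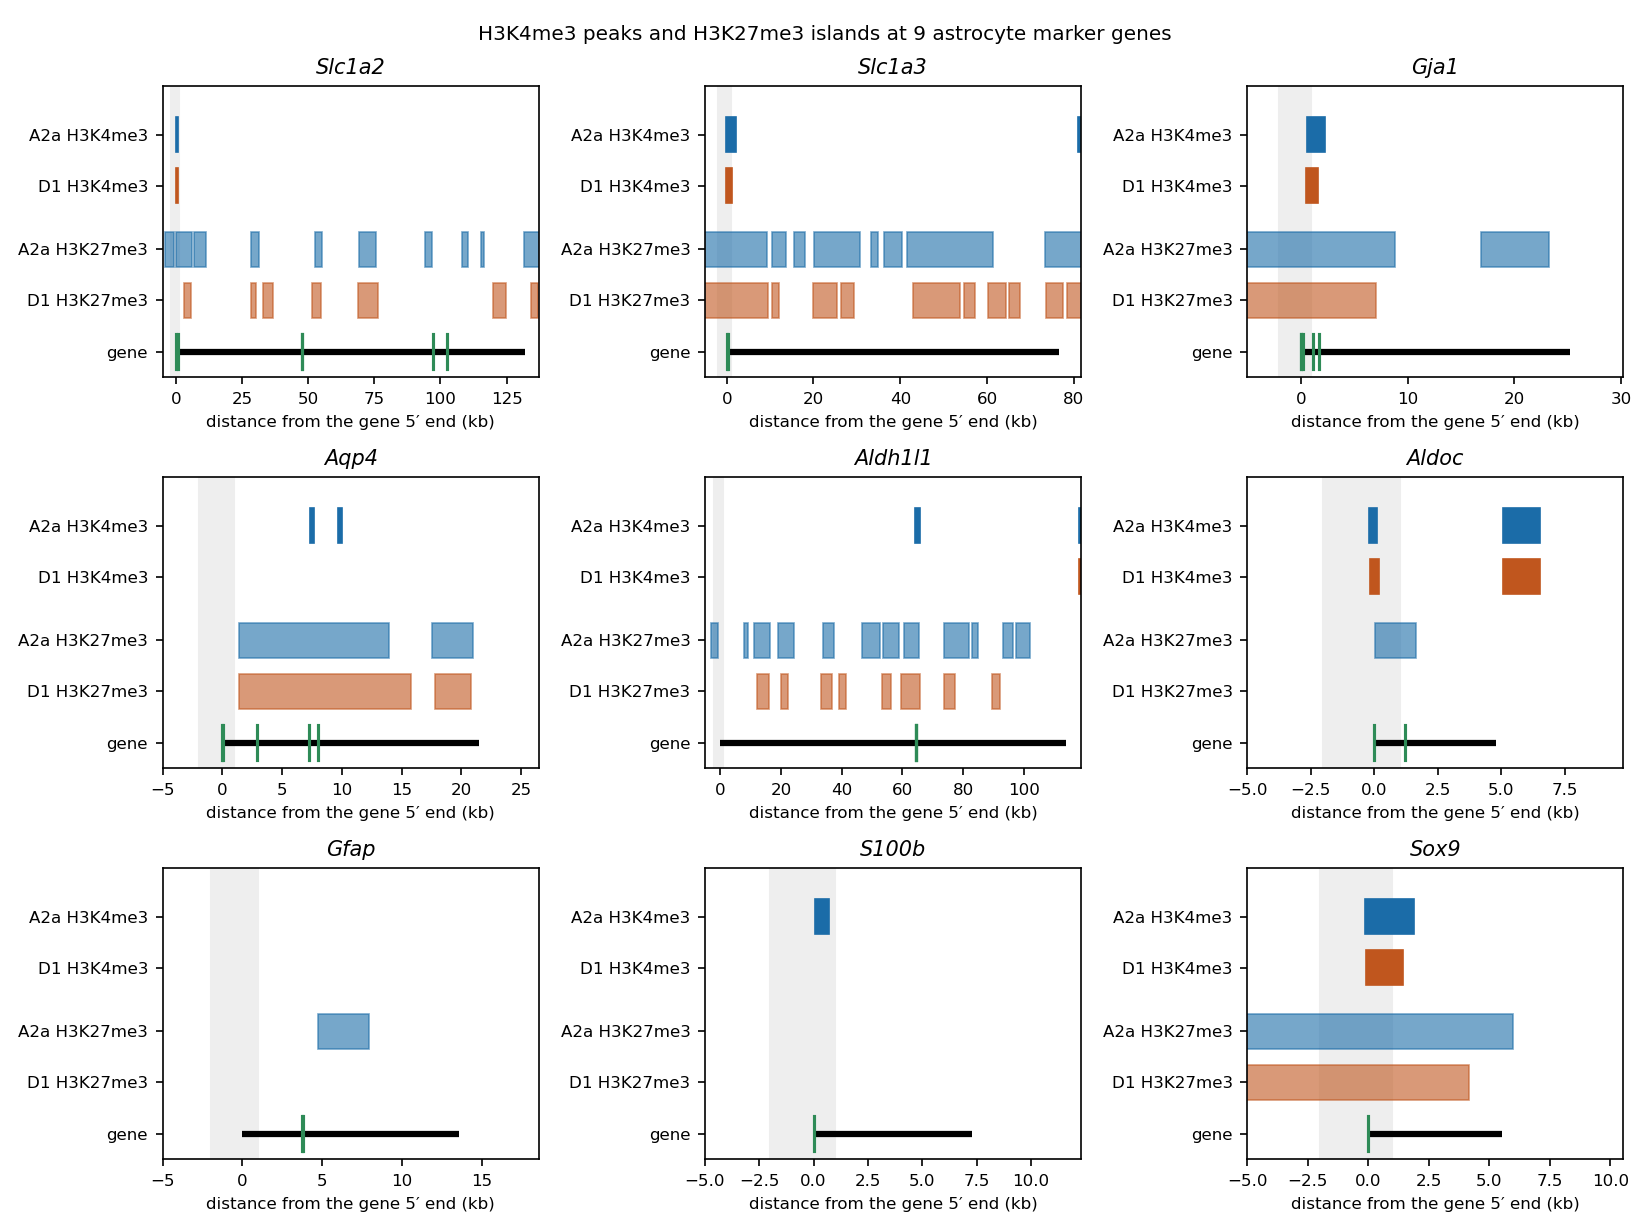
Maps of the 9 markers, drawn from 5 kb before the gene to 5 kb past it, with the distance from the gene 5′ end in kb on the x axis and the 4 lists as rows (blue, A2a; orange, D1; solid, H3K4me3 peaks; lighter, H3K27me3 islands). The black bar is the gene, green ticks are start sites of protein-coding transcripts and the grey band is the promoter window. Islands span the 5′ ends of Slc1a3, Gja1 and Sox9 in both lists, and S100b has no island in either.

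The DNA at 5 start sites of the markers is shown because the calls there ranged from both marks in both lists to a single mark in the A2a list alone. Each run is 300 bases, 250 before the start and 50 from it on, in GRCm38.p6 (the mm10 build of the lists), 5′ to 3′ on the strand of the gene, with CpG dinucleotides in capitals. The RefSeq promoter table held 7 of the 9 markers, and Aqp4 and Sox9 were without an entry. The Slc1a2 sequence was read from the genome at the annotated 5′ end of the gene (chr2:102658409-102658708, plus strand), because the table lists a start 47.8 kb further in. The others are the table entries of Slc1a3 (chr15:8710758-8711057, minus strand), Aldh1l1 (chr6:90550543-90550842, plus strand, at its coding start), Gfap (chr11:102897151-102897450, minus strand, at its coding start) and S100b (chr10:76253586-76253885, plus strand).
Slc1a2: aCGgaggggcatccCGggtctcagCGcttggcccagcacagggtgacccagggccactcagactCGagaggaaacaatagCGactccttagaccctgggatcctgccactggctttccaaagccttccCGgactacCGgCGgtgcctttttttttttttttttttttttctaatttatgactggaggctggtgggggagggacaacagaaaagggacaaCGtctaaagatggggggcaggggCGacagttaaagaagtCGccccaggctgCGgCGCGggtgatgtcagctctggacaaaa
Slc1a3: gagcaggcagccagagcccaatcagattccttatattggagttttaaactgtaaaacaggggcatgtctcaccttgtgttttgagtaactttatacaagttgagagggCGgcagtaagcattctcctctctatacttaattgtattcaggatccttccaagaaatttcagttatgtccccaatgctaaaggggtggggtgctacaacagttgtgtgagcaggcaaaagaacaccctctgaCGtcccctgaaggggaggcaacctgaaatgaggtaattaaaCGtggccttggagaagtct
Aldh1l1: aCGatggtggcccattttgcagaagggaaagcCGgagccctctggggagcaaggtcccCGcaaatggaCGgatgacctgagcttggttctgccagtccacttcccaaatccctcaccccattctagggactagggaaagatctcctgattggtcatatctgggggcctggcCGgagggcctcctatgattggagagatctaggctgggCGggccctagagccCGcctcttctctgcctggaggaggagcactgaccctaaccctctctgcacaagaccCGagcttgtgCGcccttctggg
Gfap: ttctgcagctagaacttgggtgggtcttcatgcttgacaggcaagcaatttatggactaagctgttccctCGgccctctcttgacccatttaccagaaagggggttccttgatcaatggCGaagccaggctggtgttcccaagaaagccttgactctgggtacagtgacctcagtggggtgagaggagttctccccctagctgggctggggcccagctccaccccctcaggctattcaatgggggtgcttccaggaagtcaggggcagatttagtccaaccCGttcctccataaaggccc
S100b: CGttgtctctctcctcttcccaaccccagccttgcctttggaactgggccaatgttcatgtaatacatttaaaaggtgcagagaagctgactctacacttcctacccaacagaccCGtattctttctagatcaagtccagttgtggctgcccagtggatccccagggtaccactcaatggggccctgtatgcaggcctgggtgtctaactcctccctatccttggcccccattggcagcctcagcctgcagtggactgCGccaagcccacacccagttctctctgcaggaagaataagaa

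The start sites ranged from poor to intermediate in CpG. At its 5′ end Slc1a2 had 14 CpG in the 300 bases, Aldh1l1 9, Gja1 8 and the first Aldoc entry 8, against a median of 7 over 32841 RefSeq promoters. Slc1a3, Gfap and S100b had 3 each, a number reached or undercut by 31.4% of promoters. Among the 6652 promoters with 3 to 5 CpG, an H3K4me3 peak was present at 15.0% in the A2a list and 12.6% in the D1 list, and an island at 29.5% and 18.9%. Slc1a3, with a peak and an island in both lists, and S100b, with a peak in the A2a list, were therefore in the minority of their CpG class for H3K4me3, and Gfap was in the majority. At 11 to 20 CpG, the class of Slc1a2, 79.9% and 76.6% of promoters had a peak.

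A total of 5 motifs were searched on both strands of the same 300 bases, and a match is a description of the letters only. The GC box GGGCGG was found at Slc1a3, Aldh1l1 and the first Aldoc entry, and in 35.7% of all promoters. TATAAA was found at Slc1a3 (13.6% of all promoters), the STAT motif TTCNNNGAA at Slc1a3, Gfap and the second Aldoc entry (8.30%), and the SOX core AACAAT at the 5′ end of Slc1a2 (10.7%). The nuclear factor I motif (TTGGC, then 5 bases of any kind, then GCCAA) was in none of the marker sequences and in 0.0365% of all promoters. Slc1a3 and Gfap, which shared the STAT motif, differed in both H3K4me3 calls.

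The 2 glutamate transporter genes both carried H3K4me3 at the 5′ end, and differed in H3K27me3. Slc1a2 (chr2:102658659-102790784, plus strand) encodes GLT-1, the main glutamate transporter of forebrain astrocytes. Its H3K4me3 peak had a fold enrichment of 6.49 and a −log10 q of 81.7 in A2a MSNs, and 6.40 and 56.4 in D1 MSNs, with q the false discovery rate of the peak against background. These were the strongest promoter peaks among the markers in each list, and stood at the 56.1 and 53.9 percentile of all peaks, meaning the share of peaks with a value no higher. In bp from the 5′ end, with minus for upstream, the A2a peak ran from -161 to 956 and the D1 peak from -141 to 935. The A2a peak covered 626 bp of untranslated exon, 17 bp of coding sequence and 314 bp outside the exons of coding transcripts.

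Around the Slc1a2 peak, an island lay on each side in A2a MSNs, and none reached the promoter window in D1 MSNs. The A2a islands ran from -4258 to -859 bp with 210 reads (95% Poisson interval 183 to 240) and from 142 to 5941 bp with 420 reads (381 to 462), so the second overlapped the peak. Such intervals cover counting error only. The nearest D1 island started 3.14 kb into the gene and held 103 reads (84.1 to 125). Further in, islands were scattered through the gene in both types and covered 21.9% of it in A2a MSNs and 18.2% in D1 MSNs. The downstream coding starts at 47.7 and 47.8 kb had neither mark in either list.

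Slc1a3 (chr15:8634124-8710764, minus strand) encodes GLAST, the transporter that also marks radial glia. Its promoter peak was 2.38 kb wide in A2a MSNs, with a fold of 5.45 and a −log10 q of 43.3, and 1.35 kb wide in D1 MSNs, with 4.50 and 14.0. The A2a peak lay over the first exons and introns, with 523 bp of untranslated exon and 1515 bp outside exons. An island crossed the whole promoter window in both lists: 20.2 kb and 2792 reads (2689 to 2898) in A2a MSNs, and 17.8 kb and 1165 reads (1099 to 1234) in D1 MSNs. These islands were at the 99.0 and 98.8 percentile of their lists by reads. Slc1a3 thus had stronger H3K27me3 and weaker H3K4me3 than Slc1a2 in both MSN types, by values that have no replicate error. A second large block lay within the gene, starting at 41.6 kb in A2a MSNs (19.8 kb, 2309 reads) and at 43.0 kb in D1 MSNs (10.8 kb, 760 reads). In total, 71.0% of the gene in A2a MSNs and 55.6% in D1 MSNs was under islands.

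Of the genes for gap junctions and water transport, Gja1 was bivalent by call and Aqp4 was marked past its 5′ end. Gja1 (chr10:56377330-56402513, plus strand) encodes connexin 43, the main gap junction protein of astrocytes. It lay under the longest promoter island of the markers in both lists, 25.6 kb with 3374 reads (3261 to 3490) in A2a MSNs and 20.6 kb with 1622 reads (1544 to 1703) in D1 MSNs, both at the 99.3 percentile. Its H3K4me3 peak did not reach the annotated 5′ end: it ran from 614 to 2262 bp in A2a MSNs (fold 4.37, −log10 q 17.9) and from 491 to 1592 bp in D1 MSNs (fold 3.18, −log10 q 4.18). Most of both peaks, 1282 and 1035 bp, was outside protein-coding exons, and coding starts of further Gja1 transcripts lay at 1112 and 1758 bp. The D1 peak was among the weakest of its list, at the 4.46 percentile.

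Aqp4 (chr18:15389496-15410982, minus strand) encodes the water channel aquaporin-4 of the astrocyte endfoot. No peak or island reached its promoter window in either list. An island began at 1.38 kb in both lists, and extended over 12.6 kb with 1057 reads (994 to 1123) in A2a MSNs and over 14.4 kb with 599 reads (552 to 649) in D1 MSNs. With a further island near the 3′ end, 74.5% and 81.0% of the gene was covered, which made Aqp4 the marker with the highest coverage in D1 MSNs. In A2a MSNs 2 weak H3K4me3 peaks lay inside the gene, from 7330 to 7696 bp (fold 3.93, −log10 q 6.29) and from 9698 to 10037 bp (fold 3.64, −log10 q 5.12). The first lay just past the start of a shorter protein-coding transcript, at 7224 bp. The first also lay near the 5′ end of AC133525.2, an antisense transcript 239 bp from its summit, and the start closest to the second was that of a further Aqp4 transcript, at 7983 bp. CUT&RUN reads carry no strand of transcription, so these sources cannot be told apart. The D1 list had no peak there.

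The metabolic enzyme genes had weak or displaced calls. Aldh1l1 (chr6:90486427-90600203, plus strand) encodes the 10-formyltetrahydrofolate dehydrogenase widely used as a pan-astrocyte marker. Its annotated 5′ end is that of a noncoding transcript, and its coding transcripts start 64.4 kb further in. At the upstream end an island of 2.2 kb and 163 reads (139 to 190) was called in A2a MSNs and none in D1 MSNs. At the coding start, islands were called in both lists, 5.2 kb with 495 reads (452 to 541) in A2a MSNs and 6.2 kb with 263 reads (232 to 297) in D1 MSNs. An H3K4me3 peak overlapped it in A2a MSNs alone, from 64283 to 65720 bp, with a fold of 6.56 and a −log10 q of 17.8. At its coding start Aldh1l1 was therefore bivalent by call in A2a MSNs and had an H3K27me3 call alone in D1 MSNs. Islands covered 43.9% and 24.3% of the gene.

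Aldoc (chr11:78322968-78327781, plus strand) encodes aldolase C, a glycolytic enzyme of astrocytes that some neurons also make. Its promoter peak was narrow and weak in both types, 296 bp with a fold of 3.61 and a −log10 q of 6.25 in A2a MSNs and 365 bp with 3.49 and 4.48 in D1 MSNs, at the 8.06 and 4.74 percentile. Within the gene both peaks lay in untranslated exon. An island of 1.6 kb and 111 reads (91.3 to 134) was called in A2a MSNs, and the nearest in D1 MSNs was 78.4 kb from the 5′ end. With islands of at least 2000 bp, or equal numbers of the strongest calls per list, the A2a island was lost. A far stronger peak just past the 3′ end, with a −log10 q of 117 and 72.3, was nearest to the start of the neighbouring gene Pigs. That peak lies outside the gene and was not counted for Aldoc.

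The filament and calcium-binding protein genes had the fewest calls. Gfap (chr11:102887336-102900912, minus strand) encodes glial fibrillary acidic protein, the intermediate filament of reactive and fibrous astrocytes. Like Aldh1l1 it starts with a noncoding transcript, and its coding starts lie 3.71 and 3.78 kb in. No H3K4me3 peak lay closer than 18.9 kb to its 5′ end in either list. The only call was an A2a island from 4712 to 7911 bp with 197 reads (170 to 227), which reached the windows of the coding starts by 1 and 70 bp. The nearest D1 island was 31.3 kb from the 5′ end. Gfap was the one marker with no H3K4me3 call at any annotated start in either list.

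S100b (chr10:76253853-76261159, plus strand) encodes a calcium-binding protein of astrocytes that oligodendrocyte lineage cells also make. It had an H3K4me3 peak in A2a MSNs alone, 638 bp wide from 55 to 692 bp, with a fold of 5.08 and a −log10 q of 10.2, at the 19.7 percentile, mostly over the first intron (587 bp). The nearest D1 peak was 15.3 kb from the 5′ end. S100b was the marker without H3K27me3, with the nearest island 95.9 kb from its 5′ end in A2a MSNs and 104 kb in D1 MSNs. The genes Mog, P2ry12 and Trem2, of oligodendrocytes and microglia, showed the same pattern over the 4 lists.

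Sox9 (chr11:112782224-112787760, plus strand), the transcription factor of the astrocyte lineage and the one regulator among the markers, was bivalent by call in both types. Its peak had a fold of 5.23 and a −log10 q of 60.6 in A2a MSNs, and 5.42 and 29.3 in D1 MSNs, and covered untranslated and coding exon from the 5′ end on. The island over it was 18.4 kb with 1519 reads (1444 to 1597) in A2a MSNs and 16.6 kb with 882 reads (825 to 942) in D1 MSNs. It began at -12.4 kb in both lists and took in 100% and 75.4% of the gene. The start of the divergent gene BC006965 lay within the same island.

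**Figure D2:**
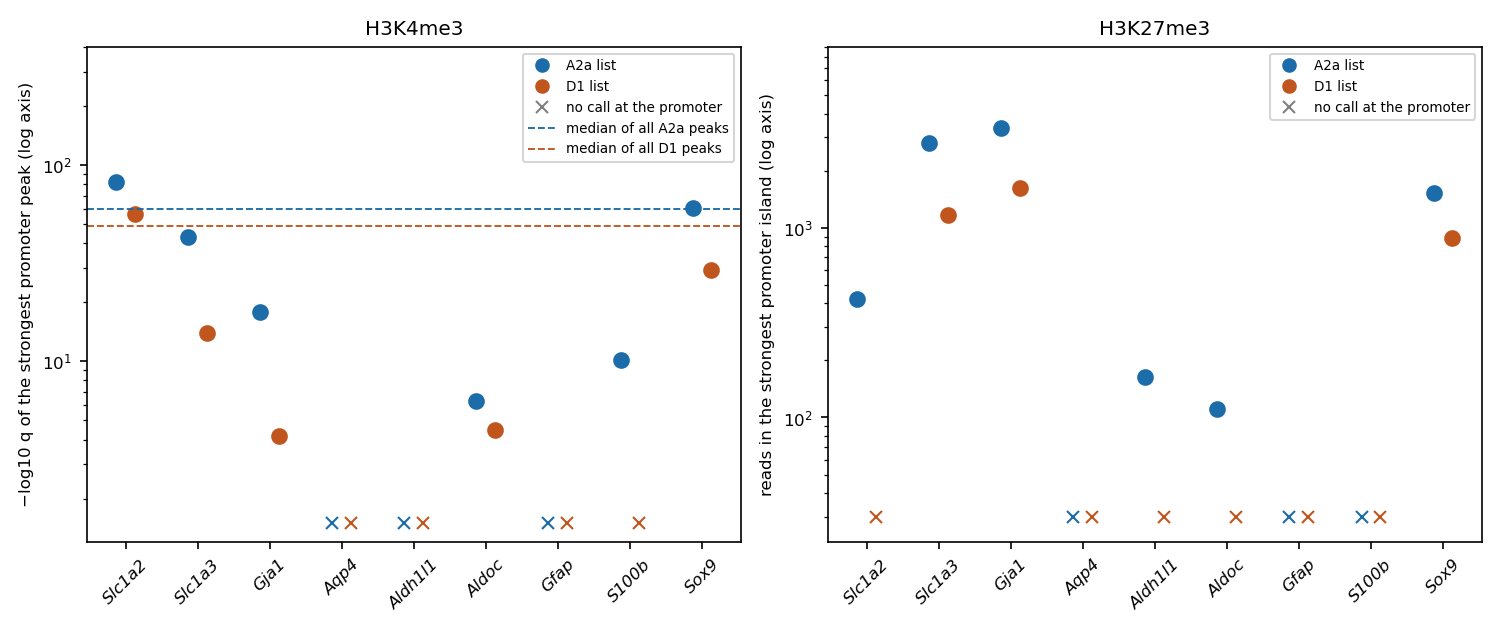
Strength of the strongest call in the promoter window of each marker, as the −log10 q of the H3K4me3 peak (left) and the reads of the H3K27me3 island (right), both on log axes. Circles are values of the A2a (blue) and D1 (orange) list, crosses at the bottom mark no call, and dashed lines are the medians of all peaks (60.1 and 48.8). Only Slc1a2 in both lists and Sox9 in the A2a list lie above their medians, and Slc1a3, Gja1 and Sox9 have the largest islands.

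Where the markers had H3K4me3, it was weak for a promoter, and the medians for genes of the labelled neurons were also below the usual promoter strength. The median percentile of the marker peaks was 37.3 (n = 6) in the A2a list and 27.5 (n = 5) in the D1 list, against 72.1 and 71.0 for the promoter peaks of all protein-coding genes with one. For projection neuron genes it was 52.6 and 49.3 (n = 7 each), and for oligodendrocyte genes 34.9 (n = 6) and 37.2 (n = 5). It was 53.0 for A2a neuron genes in the A2a list and 45.1 for D1 neuron genes in the D1 list (n = 3 each). Single neuron genes lay above the usual strength, Adora2a at 90.6 in the A2a list and Ppp1r1b at 72.7 in the D1 list. The islands at Slc1a3, Gja1 and Sox9 were among the largest of their lists. Ranked among promoter islands of protein-coding genes alone, they were less extreme. By reads they then stood at the 91.5, 92.8 and 83.3 percentile in A2a MSNs and at 89.6, 92.4 and 86.6 in D1 MSNs. Among all islands, those of A2a MSNs at Slc1a2, Aldh1l1 and Aldoc stood lower, at the 80.3, 32.8 and 8.17 percentile by reads. By reads per kb they stood at 76.5, 79.5 and 70.3. The median percentile of the marker islands by reads was 88.8 (n = 6) in A2a MSNs and 98.8 (n = 3) in D1 MSNs, against 83.0 and 84.0. The marker medians cover the markers with a call and not all 9.

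Over the length of the genes, H3K27me3 was called in 8 of 9 markers in A2a MSNs and in 6 of 9 in D1 MSNs, against 27.7% and 21.0% of protein-coding genes. Of the 8 projection neuron genes, 3 in each list had such an island, also above these shares. Islands covered little of those 8 genes, with means of 1.68% in A2a MSNs and 0.923% in D1 MSNs. H3K4me3 over the gene was called in 8 and 5 of the 9 markers, against 63.3% and 60.6%. The values that follow are those of the markers. The median share of the gene under islands was 43.9% in A2a MSNs and 24.3% in D1 MSNs, and the means of 47.6% and 31.4% compare with 10.8% and 6.63% over all protein-coding genes, whose median was 0. The share was higher in the A2a list at 7 markers, higher in the D1 list at Aqp4, and 0 in both at S100b. The shares were also ranked among the protein-coding genes of each list. By this rank D1 stood above A2a at Slc1a2 (88.9 against 83.8 percentile), Slc1a3 (95.7 against 94.3), Aldh1l1 (90.8 against 90.0) and Aqp4 (97.4 against 94.7). It stood below A2a at Gja1 (91.7 against 92.9) and Sox9 (97.1 against 100), and Aldoc and Gfap had no covered base in the D1 list. Fewer modified nuclei, less of the mark per nucleus and the lower yield of the D1 list cannot be told apart in these pooled lists.

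**Figure D3:**
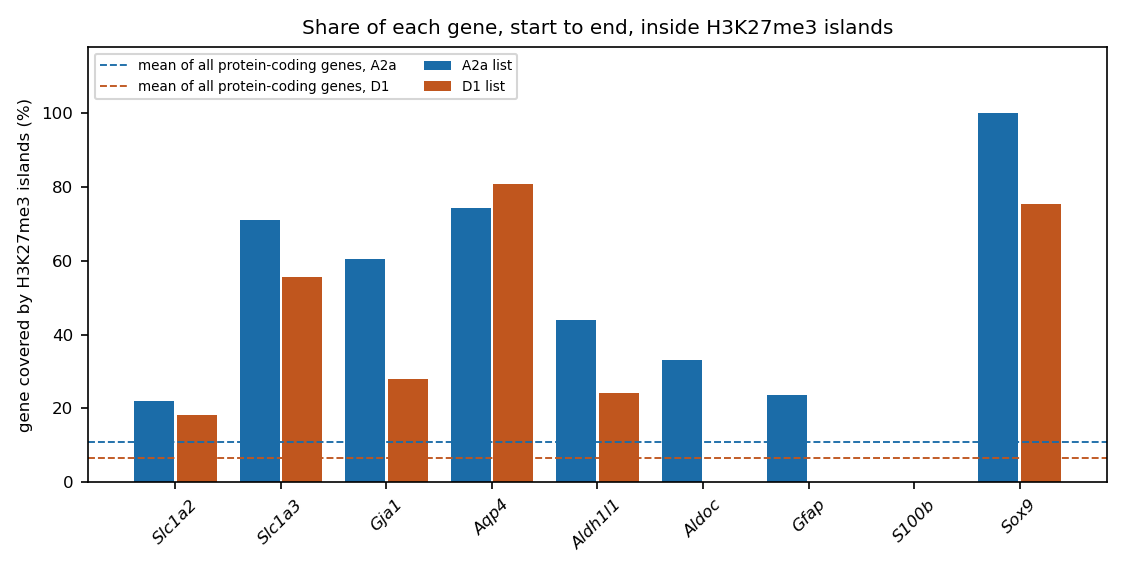
Share of each marker gene, from annotated start to end, inside H3K27me3 islands (y axis, %), for the A2a (blue) and D1 (orange) lists. Dashed lines are the means over all protein-coding genes (10.8% and 6.63%), and each bar rests on 1 pooled list with no error. Sox9 is covered in full in the A2a list, and S100b has no covered base in either.

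In A2a over D1 ratios, Gja1 and Slc1a3 were high for H3K4me3 and closer to the median for H3K27me3. The ratio of −log10 q was 4.29 at Gja1 and 3.08 at Slc1a3, at the 99.2 and 97.2 percentile of the 12204 protein-coding genes with a promoter peak in both lists, and 2.07 at Sox9, 1.45 at Slc1a2 and 1.40 at Aldoc. Over those genes the median ratio was 1.55, with quartiles of 1.29 and 1.89, so the lists differ in scale. By fold enrichment the ratio was 1.37 at Gja1 and 1.21 at Slc1a3, at the 94.3 and 84.3 percentile, and from 0.965 to 1.03 at Sox9, Slc1a2 and Aldoc, against a median of 1.03 over the same genes. The ratio of island reads per kb was 2.11 at Slc1a3, 1.67 at Gja1 and 1.55 at Sox9, against a median of 1.88 over 3132 genes. The Gja1 ratio of −log10 q rests on a weak D1 peak, with a −log10 q of 4.18 at the 4.46 percentile. High ratios of −log10 q were not particular to these markers, with 5.99 at Apoe, 4.75 at Olig2 and 4.08 at Kcnj10. The medians were 1.71 over 22 genes of the second astrocyte list below and 1.75 over 4 oligodendrocyte genes. A −log10 q grows with read depth as well as with enrichment, and these values are not normalised between lists.

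**Figure D4:**
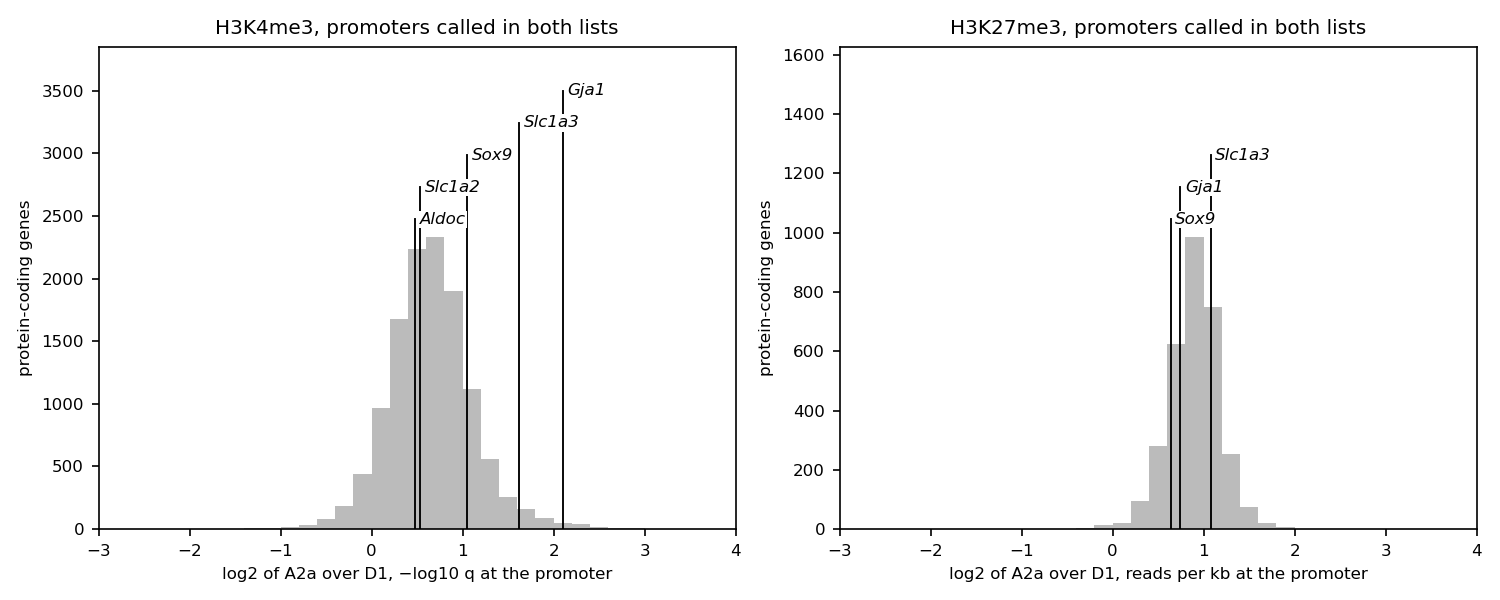
Distribution over protein-coding genes of the A2a over D1 ratio at promoters called in both lists, on a log2 x axis, for the −log10 q of H3K4me3 peaks (left, 12204 genes) and the reads per kb of H3K27me3 islands (right, 3132 genes). The y axis counts genes, black lines mark the astrocyte markers, and values past the ends are drawn in the last bins. Gja1 and Slc1a3 lie in the right tail on the left and within the bulk on the right.

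A second list of 35 genes known from astrocytes was read in the same way, and since it too was chosen with earlier results known it is no independent evidence. A promoter H3K4me3 peak was present in 29 genes in A2a MSNs and 22 in D1 MSNs, where the shares of protein-coding genes were 58.2% and 55.8%. A promoter island was present in 26 and 22, against 21.6% and 15.3% of protein-coding genes, and both marks in 22 and 13, against 9.53% and 5.56%. The median percentiles were 37.9 and 42.7 for peaks, against 72.1 and 71.0 over protein-coding genes with one, and 88.4 and 85.8 for islands, against 83.0 and 84.0. Like S100b among the 9 markers, 7 of these genes had a promoter H3K4me3 peak in the A2a list alone, against 2.59% of protein-coding genes. Among the 7 were Gjb6, Slc6a11, Acsbg1, Mlc1, Slc39a12 and Chrdl1. None had one in the D1 list alone, which was rare over all protein-coding genes too (0.164%).

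Within the second list, the gap junction gene Gjb6 and the transcription factor gene Sox2 lay under broad islands, and islands at other transcription factor genes varied in reads. Gjb6, which encodes connexin 30, lay under 51 kb and 6708 reads in A2a MSNs and 16.4 kb and 911 reads in D1 MSNs, with an H3K4me3 peak in A2a MSNs alone. Sox2, a factor of neural stem cells and glia, lay under 12.8 kb and 973 reads in A2a MSNs and 36.2 kb and 2779 reads in D1 MSNs, an A2a over D1 ratio of reads of 0.350 against a median of 2.61 over all genes called in both lists. Nfib had islands of 3145 and 999 reads and no peak in the promoter window, Nfia 1432 and 214 with peaks in both, Nfix 434 and 986, and Id3 1603 and 685. Fgfr3, Kcnj10, Ntsr2, F3, Apoe, Vim, Dio2, Mertk and Gpc5 were bivalent in both lists, with islands of 129 reads at Apoe to 1741 at Gpc5 in A2a MSNs. At the promoter, Slc7a10, Cldn10 and Etnppl had islands and no peak in both lists, and Agt and Itih3 had neither mark. Mlc1, Hes5, Slc39a12 and Ppp1r3c had a promoter island in A2a MSNs alone, 11.4% of the list against 7.38% of protein-coding genes. Cldn10 and Nfib did have a peak in both lists at the start of another protein-coding transcript.

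The strongest H3K4me3 peaks of the second list were those of Mt1, F3, Cst3 and Clu. The first 3 by list were Mt1, F3 and Cst3 in A2a MSNs, with −log10 q of 170, 149 and 136, and Mt1, Cst3 and Clu in D1 MSNs, with 138, 136 and 103. Mt1 encodes a metallothionein, Cst3 the secreted protease inhibitor cystatin C and Clu the chaperone clusterin, and none of these 3 had a promoter island in either list. F3 had one in both lists. Most protein-coding genes had none, as 21.6% had one in A2a MSNs and 15.3% in D1 MSNs.

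Markers of the other glia were read the same way, and the counts of the lists were not tested against each other. Of 9 oligodendrocyte genes, 6 and 5 had a promoter peak and 4 and 4 a promoter island in A2a and D1 MSNs, and 3 and 2 had both. The peak counts are near the shares of protein-coding genes, 58.2% and 55.8%, and the island counts and those of both marks above theirs, 21.6% and 15.3% and 9.53% and 5.56%. Sox10 was among those with no peak in the promoter window in either list, although peaks were called further along the gene in both lists. Olig2 had the strongest island in both, with 5957 and 2648 reads. Of 9 microglia genes, 4 and 1 had a promoter peak (44.4% and 11.1%), 5 and 2 a promoter island (55.6% and 22.2%), and 2 and 1 both (22.2% and 11.1%). With 9 genes, the A2a peak count, the D1 island count and the counts of both marks are near the shares of protein-coding genes. The D1 peak count lies below its share and the A2a island count above its share. Cx3cr1, Aif1, Itgam, Csf1r and C1qa had no peak in the promoter window in either list, although peaks were called further along Cx3cr1 in both lists and along Csf1r in the A2a list, and the strongest island in A2a MSNs was at C1qa with 707 reads. The median share of the gene under islands was 15.3% and 13.8% for oligodendrocyte genes and 5.47% and 0% for microglia genes.

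**Figure D5:**
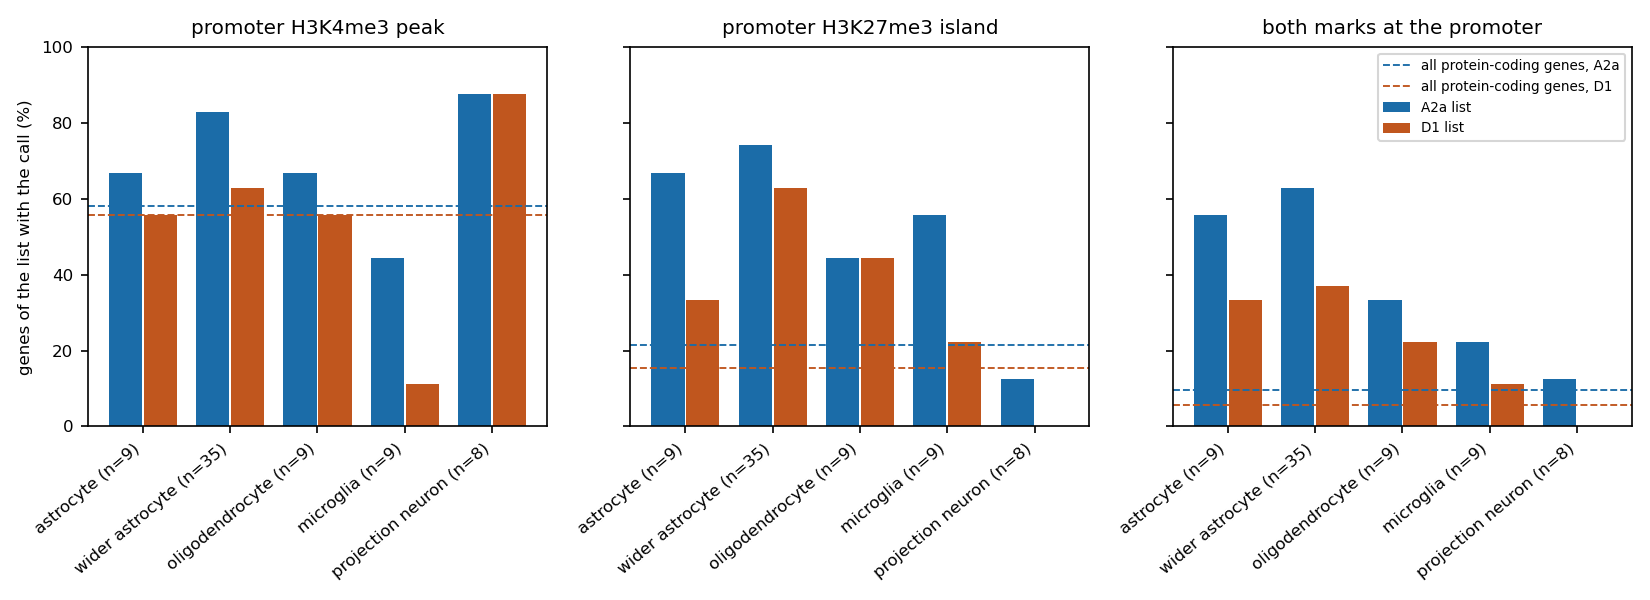
Share of each marker list (y axis, %) with a promoter H3K4me3 peak (left), a promoter H3K27me3 island (middle) and both marks (right) in the A2a (blue) and D1 (orange) lists, with the number of genes under each name. Dashed lines are the shares over all protein-coding genes. The island bars of all glial lists lie above the lines, that of microglia in the D1 list only by little (22.2% against 15.3%, with 9 genes). Those of the projection neuron list lie below them at the gene 5′ end. Over the length of the gene, 3 of its 8 genes had an island in each list. The lists of 3 A2a and 3 D1 neuron genes are not drawn, and their island shares, 66.7% to 100%, lie above the lines in both MSN types.

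The choice of start site changed the calls of 3 markers, Aqp4, Aldh1l1 and Gfap. With the start of any protein-coding transcript as the promoter, a choice made after the data were seen, H3K4me3 was called at 8 markers in A2a MSNs (61.3% of protein-coding genes) and 5 in D1 MSNs (58.8%). Islands were then called at 8 (23.2%) and 5 (16.5%), and both marks at 7 (11.2%) and 3 (6.74%). With the same starts, 1 of 8 projection neuron genes had an island in A2a MSNs, below the share of protein-coding genes. In D1 MSNs 2 of 8 had one (Gad1 and Pde10a), above the share. Aqp4, Aldh1l1 and S100b had H3K4me3 in the A2a list alone (2.63%), each with a −log10 q no higher than 17.8.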

How the data were processed

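CUT&RUN of H3K4me3 and H3K27me3 was run by the authors on INTACT-isolated nuclei of A2a and D1 MSNs. The submitters' notes name bcl2fastq, Bowtie2 2.1.0, SAMtools 0.1.19, Picard, deepTools, MACS2 and SICER on mm10, and the authors pooled the 2 replicates of each list. H3K4me3 peaks are MACS2 peaks, with a deposited fold enrichment (a ratio over background) and a deposited −log10 q value for each (the lowest is 2.02). H3K27me3 domains are SICER islands (window 200 bp, gap 600 bp, false discovery rate 0.01), with a deposited read count for each (the fewest is 27). The control library used for SICER is not given in the sources used here, neither is the depth of each library behind a list, and the IgG, no-antibody, N2a and other-antibody samples (20 of 28 samples) were not analysed here.

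Peaks and islands were overlapped by at least 1 bp with GENCODE vM21 genes and with promoters from 2 kb upstream to 1 kb downstream of the gene 5′ end, in Python 3.11.15 with numpy 2.4.6 and scipy 1.17.1. The overlap was checked on simulated intervals. A percentile is the share of a list with a value no higher, island reads carry exact 95% Poisson intervals, and sequences come from RefSeq promoters and the GRCm38.p6 genome (2846 of 2846 promoters on chromosome 2 were identical between them). The members, marker lists and alternatives were chosen with earlier results of these data known. All 9 markers are named. Of the second astrocyte list, the genes with an island in at least one list, those without a peak in at least one list and the 3 strongest peaks of each list were eligible to be named, and of the other glial lists the genes without a promoter peak in both lists and the strongest island. Single values of a few genes of the comparison lists are not reported here. No test was run, since each list pools its replicates. Alternatives changed the window, the start site, the minimum overlap, the peak and island thresholds, the number of calls used, the ranking and the background.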

Additional observations from a re-analysis of the deposited data

How the results depend on the processing

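Of 50 alternative values of the 8 marker counts, 46 were within 1.5 times the reported count. The exceptions were all in D1 MSNs. Requiring a −log10 q of at least 5 left 3 markers with an H3K4me3 promoter peak, without Gja1 and Aldoc. Promoter islands rose from 3 to 5 markers with a window of 5 kb on each side, with the start of any annotated transcript, and with the start of any protein-coding transcript, the last chosen after seeing the data. With equal numbers of the strongest calls per list, Aldoc lost its A2a peak and its A2a island, which left 5 markers with each and 4 with both marks. Islands of at least 2000 bp also removed its A2a island, with the same 5 and 4 markers left. Against all 55450 annotated genes, the background fell to 30.1% and 28.6% for H3K4me3, 19.3% and 13.1% for H3K27me3 and 4.96% and 2.87% for both marks in A2a and D1 MSNs. Of 40 alternative percentiles of single markers, 17 moved by more than 10 points. Among promoter peaks of protein-coding genes alone, Slc1a2 stood at the 25.5 and 25.9 percentile. No paired analysis was possible because each list pools its replicates and no column carries a replicate number. For the same reason no replicate could be left out. Pooled lists without replicate values or the depth of each library limit every comparison of A2a with D1 MSNs, and a missing call means below the threshold of the caller and not absence of the mark.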
